A study of Mus musculus with 49 samples.

Results

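The 9 genes described here encode interferon-gamma and the cytokines, receptors and transcription factors of type 1 differentiation: Ifng, Il12b, Il18, Il12rb1, Il12rb2, Il18r1, Stat4, Tbx21 and Eomes. They were taken by symbol from a table of 39179 genes counted in 49 mouse tumours, and each symbol matched 1 row. No measured value of these tumours entered that rule. The genes were proposed with results of these data already known.

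Each tumour was grown from CT26, a mouse colorectal carcinoma line, in Balb/c mice, and bulk RNA of the whole tumour was measured. From day 7 after injection, 9 tumours received the vehicle (DMSO-PEG400 in water, 200 µl a day), 7 received celecoxib at 30 mg/kg a day, 17 received 2 doses of anti-PD-1 of 200 µg each, and 16 received both. The labels give the daily volume of 200 µl for vehicle, celecoxib and combination tumours, and none for tumours given anti-PD-1 alone. Daily dosing with the vehicle may therefore also differ where that group is compared with another, which was not tested. Celecoxib inhibits the prostaglandin-producing enzyme COX-2, and anti-PD-1 blocks an inhibitory receptor of T cells. The design asks whether the drug alters the tumour's response to the antibody. The labels give each tumour as R or NR without defining either, and every tumour given vehicle or celecoxib alone is NR. With anti-PD-1 alone 13 tumours are NR and 4 are R, and with the combination 4 are NR and 12 are R. The treatment is said to last 7 days, the tissue label says day 7 of treatment, and the extraction protocol says day 4, a difference that was not settled. The labels do not state that each tumour came from a separate animal, so a p-value here reflects only how much these samples vary, and part of that may be technical.

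Total counts per tumour ran from 4251251 to 13671294, with a median of 7670623. All 10 T cell markers and all 5 CT26 keratin and claudin markers were counted in the series, although Cldn4 was at 0 in the 4 combination NR tumours. In 16 of 49 tumours skeletal muscle, skin or adipocyte markers exceeded a limit known from earlier results (a mean of 3 log2 CPM for muscle and 5 for the others). These were 2 vehicle, 2 celecoxib, 3 anti-PD-1 NR, 2 anti-PD-1 R, 1 combination NR and 6 combination R tumours, and results are given with and without them where a call or a count differs.

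Type 1 immunity starts when antigen-presenting cells release IL-12 and IL-18. IL-12 acts through its receptor and STAT4 in T cells and natural killer cells, where T-bet and Eomes then drive the production of interferon-gamma. Interferon-gamma acts back on tumour and myeloid cells, where it induces antigen presentation, chemokines that attract T cells, and PD-L1. In bulk RNA, fewer cells that express a gene and less of its RNA per cell cannot be told apart.

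Promoter sequence is shown first for 3 genes: Ifng and Il12rb2, which hold a match to the letters marked, and Tbx21, which does not. Whether promoter letters relate to how the genes varied across tumours was not tested. The sequences are RefSeq's, on GRCm38.p6, 5′ to 3′ on the gene's strand, and cover the 250 bases before the gene's start. Capitals mark each match to the gamma-activated site TTCNNNGAA, the letters bound by STAT proteins. The sequence of Ifng is chr10:118440796-118441045 on the plus strand, that of Il12rb2 is chr6:67376189-67376438 on the minus strand, and that of Tbx21, which has no match, is chr11:97115332-97115581 on the minus strand.
Ifng: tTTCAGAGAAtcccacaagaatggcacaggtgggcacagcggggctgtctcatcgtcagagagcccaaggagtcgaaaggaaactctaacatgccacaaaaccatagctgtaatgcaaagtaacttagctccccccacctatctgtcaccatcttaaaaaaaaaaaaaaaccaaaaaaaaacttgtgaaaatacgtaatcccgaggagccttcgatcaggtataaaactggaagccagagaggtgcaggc
Il12rb2: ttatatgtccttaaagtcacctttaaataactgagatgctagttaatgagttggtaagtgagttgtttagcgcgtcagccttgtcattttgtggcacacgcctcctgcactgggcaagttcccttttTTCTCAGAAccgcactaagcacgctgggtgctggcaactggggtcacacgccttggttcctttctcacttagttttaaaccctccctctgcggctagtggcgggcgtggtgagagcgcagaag
Tbx21: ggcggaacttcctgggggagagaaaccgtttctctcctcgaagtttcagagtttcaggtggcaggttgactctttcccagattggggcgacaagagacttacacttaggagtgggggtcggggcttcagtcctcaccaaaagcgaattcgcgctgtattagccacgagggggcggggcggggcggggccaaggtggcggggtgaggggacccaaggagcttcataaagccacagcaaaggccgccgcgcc
The table held 11 start windows for 8 of the 9 genes, and Il12rb1 had none there. The match in Ifng was TTCAGAGAA, beginning 249 bases before the start, and that in Il12rb2 was TTCTCAGAA, beginning 123 bases before it. Il18r1 also held TTCTGGGAA and TTCCCAGAA, beginning 219 and 152 bases before an internal start. Of all 32851 windows of this length, 7.02% held such a match, on both strands since the motif is its own reverse complement. The interferon-stimulated letters, GAAA on each side of any 2 bases and searched on both strands, occurred in 2 genes, Stat4 and Eomes, and in 2.98% of windows. The T-box letters TCACACC occurred on either strand in none of the 8 genes and in 3.33% of windows. A gene with several windows has more chances of a match, so the genes named here do not compare directly with shares of windows. A match is a description of letters, and its absence says only that the letters are not in this window.

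The 9 genes varied together from tumour to tumour, and their groups overlapped. Over the 36 pairs of genes, the correlation of deviations from the group mean had a median of 0.81 and a range from 0.63 to 0.92 (n = 49 tumours, description only; all values share library and depth). The first principal component held 82.6% of their variance. Membership of the 6 groups of treatment and label held between 3.84% of the variance for Stat4 and 18.8% for Tbx21. With 6 groups such a share lies above 0 even where the groups do not differ, and these shares were not tested. The lowest mean over the 9 genes was in anti-PD-1 replicate 14, at -0.68 log2 CPM (CPM is the count relative to the TMM-scaled library total, with a prior count of 2 added on the log2 scale), followed by combination replicate 15 at -0.12 and anti-PD-1 replicate 12 at 0.74. The highest was in combination replicate 16, at 4.43. All 3 of the lowest tumours and the highest one carry the label R. Of the 2 lowest, both were over the muscle limit, with muscle marker means of 4.65 and 7.71 log2 CPM, and their T cell marker means of -0.31 and 0.40 were the lowest of all tumours.

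**Figure D1:**
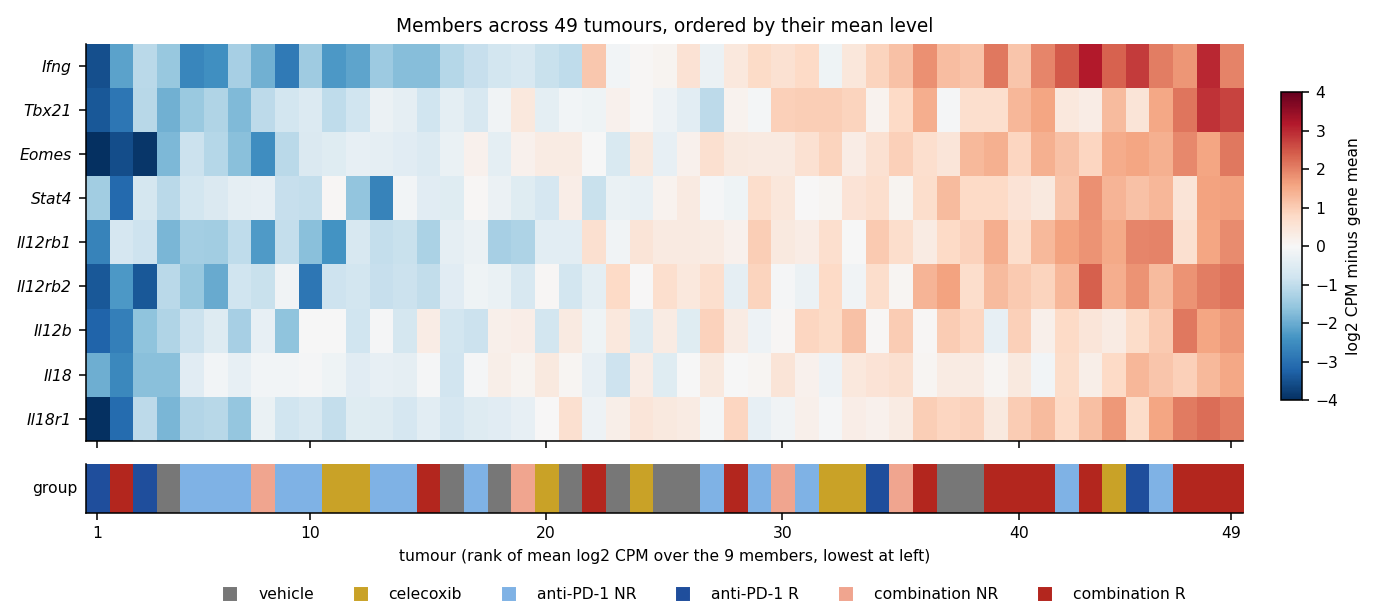
Heat map of the 9 genes (rows) in 49 tumours (columns, ordered by the mean over the genes), as log2 CPM minus the gene's own mean, with a strip that gives the group. The colours change together down each column, and R tumours sit at both ends of the order.

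Ifng (chromosome 10, 118441046 to 118445892, plus strand), which encodes interferon-gamma, measured 1.22 CPM in the lowest vehicle tumour, 3.67 in the median and 9.74 in the highest. With celecoxib the lowest, median and highest were 0.608, 3.502 and 21.4 CPM. With anti-PD-1 the 13 NR tumours ran from 0.352 to 22.8 CPM around a median of 1.43. The 4 R tumours of that treatment measured 1.76, 0.118, 7.60 and 29.3 CPM (replicates 12, 14, 15 and 17). They thus held both the lowest tumour of that treatment, at 1 count, and its highest. With the combination the NR tumours measured 2.46, 6.23, 0.878 and 9.39 CPM (replicates 2, 5, 6 and 12). The 12 combination R tumours ran from 0.721 to 37.9 CPM around a median of 14.5, and only replicates 15 and 10 lay under 2 CPM. By mean log2 CPM the order from low to high was anti-PD-1 NR (1.40 ± 1.73, SD), celecoxib (1.71 ± 1.60), anti-PD-1 R (1.86 ± 2.71), combination NR (1.89 ± 1.38), vehicle (1.92 ± 1.01) and combination R (3.30 ± 1.65). The first 5 lie within less than 1 SD of each other, and the ranges of all groups overlap. The combination exceeded the anti-PD-1 median in 13 of 16 tumours, with a log2 fold change of 1.02 (SE 0.55), and exceeded the vehicle median in 12 of 16, with 1.52 (SE 0.70). In edgeR's quasi-likelihood test with Benjamini-Hochberg adjustment the adjusted p was 0.334 and 0.296, so neither difference passed the limit of 0.05.

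Il12b (chromosome 11, 44400063 to 44414033, plus strand) encodes the p40 chain shared by IL-12 and IL-23. Its lowest, median and highest values were 1.71, 5.42 and 8.86 CPM with vehicle and 2.37, 4.25 and 9.92 with celecoxib. Anti-PD-1 tumours gave 0.236, 3.64 and 9.05 CPM, and combination tumours gave 0.432, 5.24 and 19.4 CPM. Combination tumours exceeded the anti-PD-1 median in 13 of 16 cases, with a log2 fold change of 0.77 (SE 0.33, edgeR adjusted p 0.222). Among the 12 combination R tumours the median was 5.37 CPM, against 4.80 for the 4 NR tumours. Those 4 lay between 3.36 and 8.86 CPM, inside the range of the R tumours.

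Il18 (chromosome 9, 50554827 to 50581840, plus strand), the cytokine that acts with IL-12, had a smaller SD of log2 CPM over the tumours (0.79) than the other 8 genes. Its median was 10.6 CPM for vehicle, 13.4 for celecoxib, 10.3 for the antibody and 11.5 for the combination. Its log2 fold change was 0.25 (SE 0.25) between the combination and anti-PD-1, and 0.10 (SE 0.42) between R and NR of the combination. The approximate 95% interval of the latter ran from -0.73 to 0.93, so it held 0 and differences in both directions. In the 4 anti-PD-1 R tumours it measured 3.18, 2.60, 15.7 and 27.4 CPM, replicates 12 and 14 lying below every NR tumour of the treatment and replicate 17 above every one.

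Il12rb1 and Il12rb2 encode the chains of the IL-12 receptor. Il12rb1 (chromosome 8, 70808449 to 70821424, plus strand) had medians of 5.22 CPM for vehicle, 5.80 for celecoxib, 3.18 for the antibody and 9.26 for the combination. Its range was wide in each treatment, from 0.709 to 23.9 CPM with anti-PD-1 and from 1.02 to 22.6 with the combination. No combination tumour exceeded the highest anti-PD-1 tumour, and the log2 fold change was 0.40 (SE 0.40).

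Il12rb2 (chromosome 6, 67291318 to 67376188, minus strand) is the chain induced on activated type 1 cells. The medians were 3.22 CPM for vehicle, 2.40 for celecoxib, 1.97 for the antibody and 3.56 for the combination. In anti-PD-1 replicates 12 and 14, both R, it had 0 counts. A count of 0 allows up to 0.529 and 0.355 CPM there, from 3 counts and for counting error only. The other anti-PD-1 R tumours measured 4.00 and 8.86 CPM, and the latter exceeded all 13 NR tumours. With the combination the 4 NR tumours measured 1.42, 2.29, 1.17 and 2.53 CPM, and the 12 R tumours ran from 0.288 to 13.4 CPM around a median of 5.64. That R minus NR difference of 1.70 (SE 0.82) was the widest of the 9 genes in this comparison (unadjusted edgeR p 0.0421, adjusted p 0.540). Serbp1 overlaps Il12rb2 on the opposite strand, with 670324 counts over the series, and the sources used here do not give the strand setting of the counting. In the tumours at 0 for Il12rb2, Serbp1 had 8807 and 13638 counts.

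Il18r1 (chromosome 1, 40465552 to 40500854, plus strand) encodes the chain that binds IL-18. Its lowest, median and highest values were 2.08, 9.94 and 15.2 CPM with vehicle and 3.95, 8.11 and 26.7 with celecoxib. With anti-PD-1 they were 0.118, 5.48 and 24.1 CPM. With the combination they were 0.721, 12.6 and 38.5 CPM. In 15 of 16 combination tumours it exceeded the anti-PD-1 median. The log2 fold change was 1.12 (SE 0.37), with an edgeR adjusted p of 0.110. It passed the limit without anti-PD-1 replicate 2 (edgeR adjusted p 0.0422, 212 of 13712 genes called) and without combination replicate 15 (0.0405, 449 of 13700 genes called). With the T cell marker mean as a covariate the estimate was 0.14 (edgeR adjusted p 0.663).

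Stat4 (chromosome 1, 51987148 to 52107189, plus strand), the factor that carries the IL-12 signal, varied least with the groups. Vehicle tumours had a median of 4.87 CPM, celecoxib tumours 4.56, anti-PD-1 tumours 4.07 and combination tumours 6.08, and its log2 fold change was 0.49 (SE 0.33) between the last 2. The lowest tumours were combination replicate 15, at 0.288 CPM, and anti-PD-1 replicate 6, at 0.488 CPM.

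Tbx21 (chromosome 11, 97098071 to 97115331, minus strand), which encodes T-bet, the lead factor of type 1 cells, had the smallest p of the 9 genes when the combination was set against anti-PD-1. Its lowest, median and highest values were 1.0997, 4.34 and 7.88 CPM with vehicle and 2.28, 4.97 and 11.9 with celecoxib. With anti-PD-1 the NR tumours ran from 1.24 to 14.6 CPM around 3.20, and the R tumours measured 2.12, 0.236, 5.34 and 7.03 CPM. With the combination the NR tumours measured 6.60, 9.67, 2.19 and 8.54 CPM, and the R tumours ran from 0.432 to 37.3 CPM around 10.1. By mean log2 CPM the order was anti-PD-1 R (1.39 ± 1.76, SD), anti-PD-1 NR (1.94 ± 0.95), vehicle (2.08 ± 0.70), celecoxib (2.48 ± 0.91), combination NR (2.63 ± 0.92) and combination R (3.12 ± 1.62), where each step is smaller than the SD of either neighbour. Between the combination and anti-PD-1, 13 of 16 tumours exceeded the anti-PD-1 median and 4 exceeded all 17 anti-PD-1 tumours. The log2 fold change was 1.44 (SE 0.39), and the edgeR adjusted p of 0.0674 missed the limit. DESeq2 gave an adjusted p of 0.0151, with 297 of 13726 genes called where edgeR called 69. EdgeR gave an adjusted p of 0.0459 without the 16 tumours with other tissue (139 of 13483 genes called) and 0.0407 with the muscle marker mean as a covariate (152 genes called). With the T cell marker mean as a covariate the estimate was 0.29 (edgeR adjusted p 0.457). Against vehicle the log2 fold change was 1.45 (SE 0.48, edgeR adjusted p 0.180), and it was 1.95 (adjusted p 0.0213) without the tumours with other tissue, where 1145 of 13483 genes were called against 10 of 13726 with them.

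Eomes (chromosome 9, 118478212 to 118486132, plus strand), the T-box factor of cytotoxic T cells and natural killer cells, had medians of 4.99 CPM for vehicle, 7.66 for celecoxib, 4.72 for the antibody and 10.5 for the combination. In the anti-PD-1 R tumours it measured 0.176, 0.118, 9.44 and 18.7 CPM. The first 2 lie below and the last lies above all 13 NR tumours. Between the combination and anti-PD-1 the log2 fold change was 0.74 (SE 0.40, edgeR adjusted p 0.329).

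**Figure D2:**
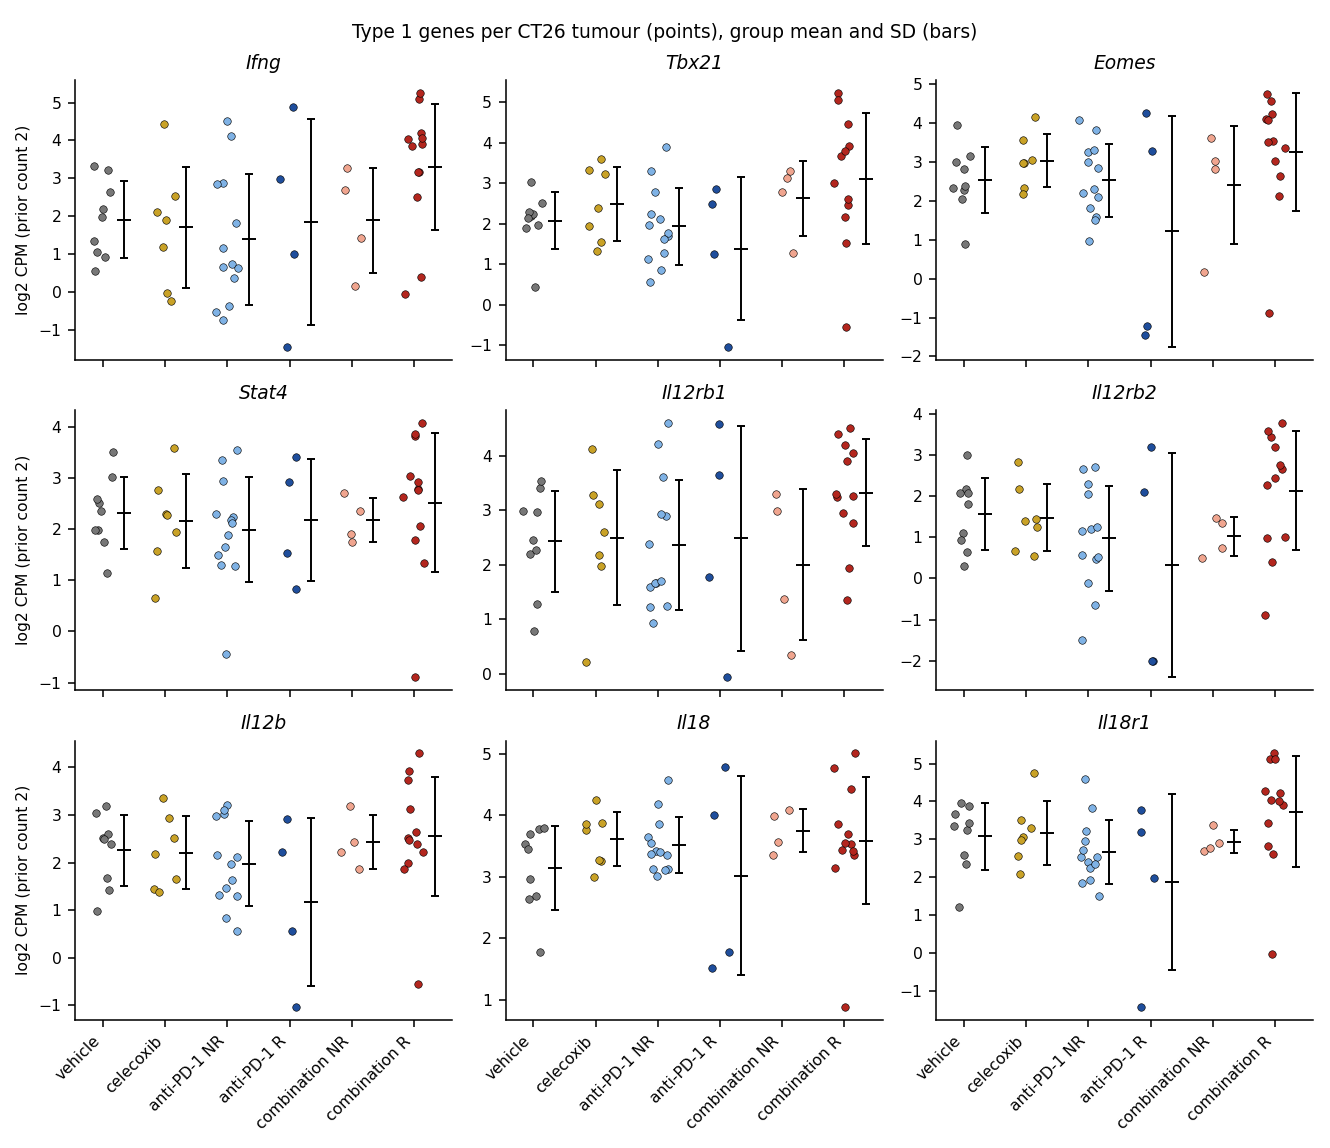
Each of the 9 genes as log2 CPM (vertical axis) in the 6 groups, with 1 point per tumour and bars for the group mean and SD. The group ranges overlap in every panel, and the 4 anti-PD-1 R tumours are split between low and high values in most panels.

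Across treatments, the fitted estimates of all 9 genes were positive for the combination against vehicle and against anti-PD-1, and none of these differences passed the adjusted limit. Against vehicle the single tumours did not all follow: only 7 of 16 combination tumours exceeded the vehicle median for Il12b and 8 of 16 for Il12rb2. Against anti-PD-1 the median log2 fold change of the 9 genes was 0.77, from 0.25 for Il18 to 1.44 for Tbx21, whereas the median of all 13726 genes tested was -0.002. EdgeR called 0 of 9, where 0.503% of all genes were called. At an unadjusted p under 0.05 there were 4 of 9 (Tbx21, Il18r1, Il12b and Il12rb2), beside 17.2% of all genes. Against vehicle 9 of 9 were positive with a median of 0.74, 0 were called where 0.0729% of all genes were, and 2 of 9 (Ifng and Tbx21) had an unadjusted p under 0.05 beside 15.4% of all genes. Against celecoxib 9 of 9 were positive with a median of 0.51 and 0 were called, beside 0.0364%, and 0 of 9 had an unadjusted p under 0.05 beside 4.92%. Of all genes, 49.6% were positive against anti-PD-1, 50.9% against vehicle and 53.8% against celecoxib. These comparisons share the combination tumours, so their directions are not independent. The 9 genes also varied together across tumours, so 9 of 9 does not stand for 9 independent results. The counts of positive genes stayed at 9 of 9 in all 3 comparisons when each tumour was left out in turn and without the tumours with other tissue. With the T cell marker mean as a covariate they were 3 of 9, 4 of 9 and 1 of 9.

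Neither agent alone gave a common direction. Celecoxib minus vehicle was positive for 6 of 9 genes (median 0.25, 0 called beside 0% of all genes, and 0 at an unadjusted p under 0.05 beside 2.29%), for 3 of 9 without celecoxib replicate 4, and for 9 of 9 without celecoxib replicate 5 or vehicle replicate 5. Anti-PD-1 minus vehicle was positive for 5 of 9, with a median of 0.00, and 0 were called beside 0.0874% (unadjusted, 0 of 9 beside 3.48%). It was positive for 3 of 9 without anti-PD-1 replicate 2, 11 or 17 or vehicle replicate 8, for 7 of 9 without vehicle replicate 5, and for 1 of 9 with limma-voom. The widest estimates were 0.56 (SE 0.56) for Tbx21 with celecoxib and 0.50 (SE 0.68) for Ifng with anti-PD-1. The celecoxib effect with antibody minus that without it was positive for 8 of 9 genes, beside 51.5% of all genes. The widest were Il12rb2 at 0.997 (SE 0.81) and Il18r1 at 0.96 (SE 0.64). Of the 9 genes 0 were called beside 0% (unadjusted, 0 of 9 beside 3.01%). With the T cell marker mean as a covariate 0 of 9 were positive.

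**Figure D3:**
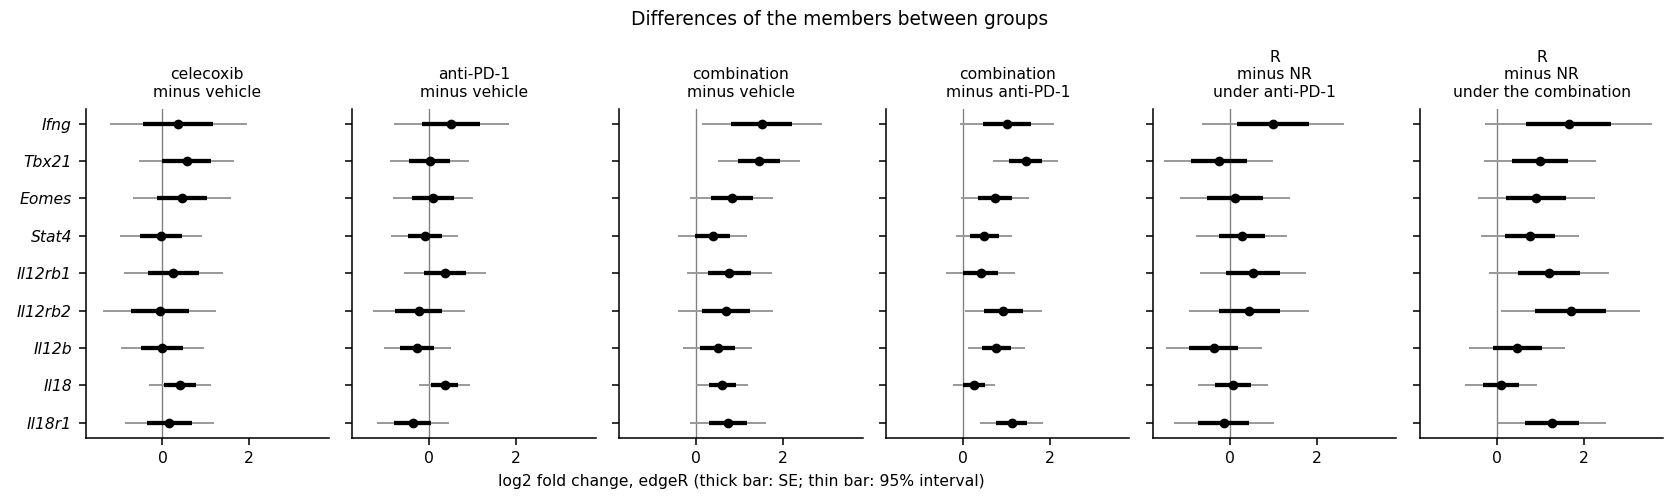
Log2 fold changes of the 9 genes in 6 comparisons from edgeR. Thick bars give the SE and thin bars an approximate 95% interval (1.96 SE on each side). All 9 points lie right of 0 for the combination against vehicle, for the combination against anti-PD-1, and for R against NR under the combination.

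Between R and NR tumours the fitted estimates of all 9 genes were positive under the combination, and they had no common direction under anti-PD-1 alone. Under the combination the median log2 fold change was 0.996, against 0.03 for all 14247 genes of this fit, of which 53.9% were positive. The estimates were 1.70 (SE 0.82) for Il12rb2, 1.66 (SE 0.98) for Ifng, 1.27 (SE 0.63) for Il18r1 and 1.20 (SE 0.70) for Il12rb1, and the smallest was 0.10 (SE 0.42) for Il18. For Il18 the group values point the other way, with a median of 11.4 CPM in R and 13.5 in NR tumours and 4 of 12 R tumours above the NR median. EdgeR called 0 of 9 beside 0% of all genes, and 2 of 9 (Il12rb2 and Il18r1) had an unadjusted p under 0.05 beside 9.11%. Leaving out each tumour in turn left 8 or 9 positive, and with the T cell marker mean as a covariate 4 of 9 were. Under anti-PD-1 alone 6 of 9 were positive (median 0.12, 0 called beside 0%, and 0 at an unadjusted p under 0.05 beside 6.48%), with Ifng at 0.98 (SE 0.83). That comparison rests on single tumours: without replicate 17 it was positive for 0 of 9, with Ifng at -0.60, without replicate 15 for 4 of 9, and without replicate 14 for 9 of 9. Without the tumours with other tissue, which leaves 2 R tumours, it was positive for 8 of 9. The difference between the 2 R minus NR contrasts was positive for 9 of 9, beside 53.6% of all genes. It was widest for Il18r1 at 1.42 (SE 0.86), and 0 were called beside 0% (unadjusted, 0 of 9 beside 2.31%). With the T cell marker mean as a covariate it was positive for 4 of 9. Averaged over both treatments, Ifng gave 1.32 (SE 0.64, edgeR adjusted p 0.345) and Il12rb2 gave 1.08 (SE 0.53, adjusted p 0.352), with 0 of 9 called beside 0.0491%, and these 2 at an unadjusted p under 0.05 beside 14%.

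Within 1 label, the NR tumours of the combination and of anti-PD-1 gave 5 of 9 positive differences, with a median of 0.04, Tbx21 at 0.58 (SE 0.61) and 0 called beside 0.0281% (unadjusted, 0 of 9 beside 5.73%). That count was 2 without combination replicate 12 and 3 without anti-PD-1 replicate 3, 5, 8, 10 or 13, and it was 7 without anti-PD-1 replicate 2 or 11 or combination replicate 2 or 6. The R tumours gave 9 of 9, beside 48.6% of all genes, and leaving out each tumour in turn left 7 to 9. Tbx21 was at 1.83 (SE 0.70) and Il18r1 at 1.46 (SE 0.64), with 0 called beside 0%. Of these R tumours, 2 of 4 with anti-PD-1 and 6 of 12 with the combination were over a limit for other tissue. Tbx21 and Il18r1 had an unadjusted p under 0.05, beside 7.38%, and with the T cell marker mean as a covariate 3 of 9 were positive. Of the 4 anti-PD-1 R tumours in that comparison, replicates 12 and 14 hold the low values. The difference between these differences is the contrast of R minus NR between treatments given above.

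The 9 genes followed the T cell markers of the same tumour, and they also followed other cell lists, given further below. Correlations with the mean of 10 T cell markers, as deviations from the group mean over 49 tumours, ran from r = 0.81 (rho 0.75) for Il12b to r = 0.94 (rho 0.93) for Il18r1. For Ifng they were r = 0.90 and rho = 0.89. All 9 had a permutation p of 1e-05, the smallest that 100000 resamples can give, and an adjusted p of 1e-05 over the 9 relations. Without anti-PD-1 replicate 14 and combination replicate 1, the tumours farthest from the median, r ran from 0.76 to 0.94. Within treatments r was at least 0.737 except for Il12b with celecoxib, at 0.34 over 7 tumours. Without the tumours with other tissue it was 0.80 for Il12b and 0.94 for Il18r1.

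**Figure D4:**
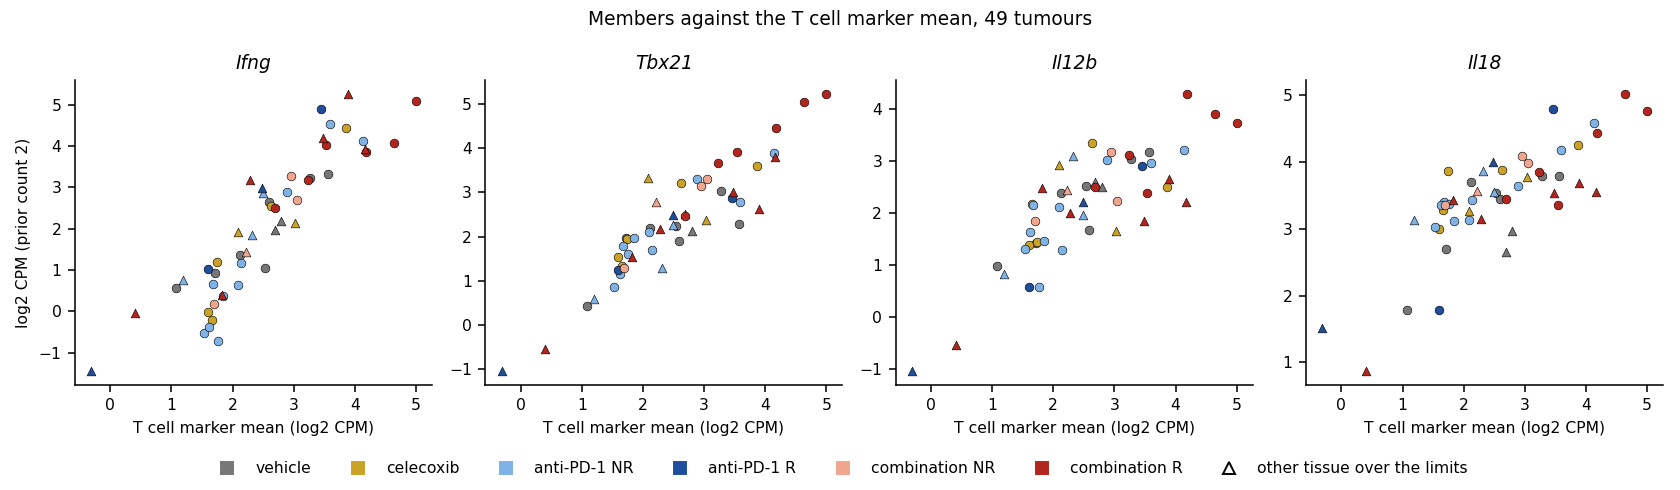
Ifng, Tbx21, Il12b and Il18 (log2 CPM, vertical axes) against the mean of 10 T cell markers in the same tumour (horizontal axes), coloured by group, with triangles for tumours with other tissue. The points climb together in each panel, and the lowest pair of tumours, both triangles, lies at the left end.

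EdgeR called no marker of the following lists in these comparisons. With anti-PD-1 as the reference all 10 T cell markers had positive estimates in the combination (median log2 fold change 1.08, 8 at an unadjusted p under 0.05). Against vehicle all 10 did (median 0.997, 3 at an unadjusted p under 0.05). Of all genes, 17.2% had an unadjusted edgeR p under 0.05 against anti-PD-1 and 15.4% against vehicle. The 2 CD8 markers had a median of 1.53 against anti-PD-1. Macrophage markers were positive in 6 of 7 cases against anti-PD-1 (median 0.57) and in 7 of 7 against vehicle (median 0.67). CT26 carcinoma markers were negative in 3 of 4 cases against anti-PD-1 (median -0.80) and in 4 of 4 against vehicle (median -0.93, 3 at an unadjusted p under 0.05). All 10 muscle markers were positive against anti-PD-1 (median 1.60, 3 at an unadjusted p under 0.05). All 10 were also positive against vehicle (median 3.56, 10 at an unadjusted p under 0.05). The 5 adipocyte markers tested were negative in both comparisons (medians -0.55 and -1.91). For R minus NR under the combination all 10 muscle markers (median 3.43) and all 5 adipocyte markers tested (median 3.33) were positive. All 10 T cell markers were counted in each group. Their summed level ran from 36.4 to 169.6 CPM with vehicle, from 59.1 to 208 with celecoxib, from 46.1 to 286 in anti-PD-1 NR, from 21.04 to 173 in anti-PD-1 R, from 49.2 to 135 in combination NR and from 28.8 to 503 in combination R tumours. The 6 natural killer cell markers, whose cells also make interferon-gamma, ran from 3.91 to 54.5 CPM with vehicle, from 19.4 to 77.7 with celecoxib, from 7.51 to 104.5 in anti-PD-1 NR, from 0.591 to 68.7 in anti-PD-1 R, from 13.2 to 42.7 in combination NR and from 3.03 to 144 in combination R tumours. Klra8 was at 0 in anti-PD-1 R and combination NR, the smallest groups, with 4 tumours each. Of the 6 natural killer cell markers 4 passed the count filter. The 10 skeletal muscle markers, all counted in each group, ran from 4.06 to 150.3 CPM with vehicle and from 7.70 to 5541 with celecoxib. They ran from 4.83 to 694 CPM in anti-PD-1 NR, from 9.71 to 325 in anti-PD-1 R, from 6.56 to 177 in combination NR and from 6.69 to 2789 in combination R tumours. The part of these markers in the differences above was not tested beyond the covariates given.

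Set against T cell marker RNA, none of the 9 genes differed past the adjusted limit, and Il18 and Stat4 came nearest to it. The measure is log2 CPM of the gene minus the T cell marker mean, compared by permutation in 45 tests. It falls where T cell markers rise, even if the gene itself does not change. Il18 measured 0.55 ± 0.69 (SD) in 16 combination tumours and 1.25 ± 0.51 in 17 anti-PD-1 tumours, a difference of -0.70 (two-sided permutation p = 0.00241, adjusted p 0.108), with 3 of 16 combination tumours above the anti-PD-1 median. Within the combination it was 0.31 ± 0.61 in 12 R and 1.27 ± 0.31 in 4 NR tumours, a difference of -0.96 (exact permutation p = 0.00934, adjusted p 0.160). Against 9 vehicle tumours, at 0.66 ± 0.51, the anti-PD-1 tumours differed by 0.59 (exact permutation p = 0.0107, adjusted p 0.160). Without the subtraction, Il18 had a mean of 3.63 log2 CPM in combination and 3.40 in anti-PD-1 tumours. Its mean was 3.59 in combination R and 3.75 in combination NR tumours, whose T cell marker means were 3.28 and 2.48. For Stat4 the combination minus vehicle difference was -0.48 (exact permutation p = 0.0162, adjusted p 0.182). Ifng differed by 0.51 (permutation p = 0.133) and Tbx21 by 0.25 (permutation p = 0.126) when combination and anti-PD-1 tumours were compared, both with an adjusted p of 0.387. None of the 45 passed after adjustment. With Cd3e in place of the list, Il18 passed for the combination minus anti-PD-1, at -1.15.

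**Figure D5:**
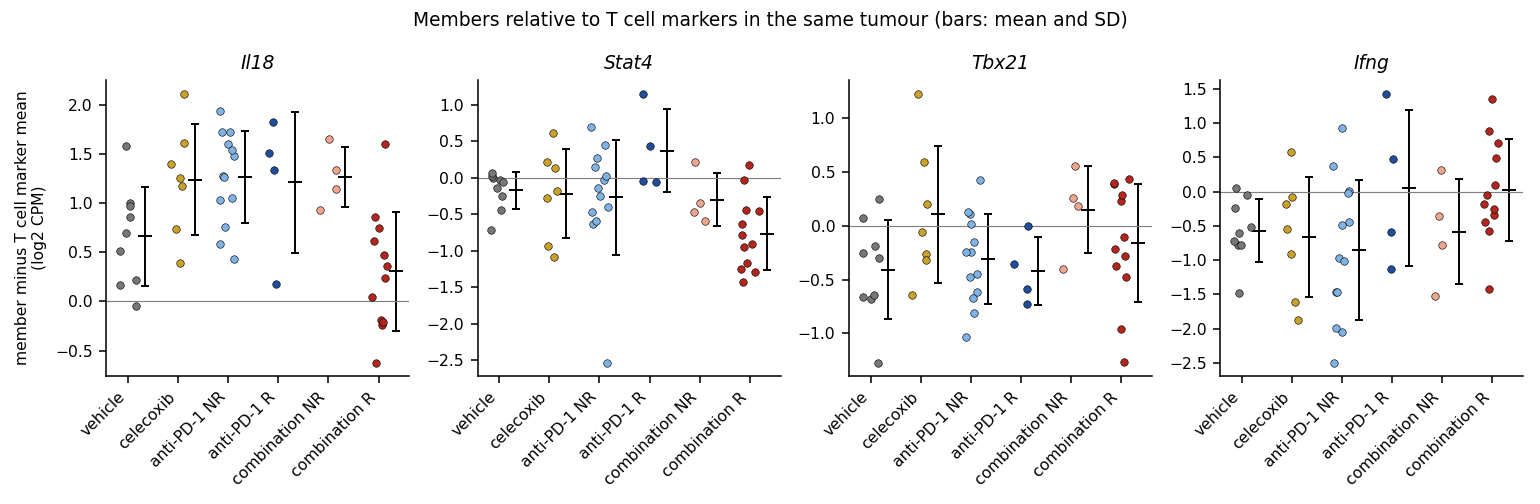
Il18, Stat4, Tbx21 and Ifng as log2 CPM minus the T cell marker mean (vertical axis) in the 6 groups, with points for tumours and bars for mean and SD. For Il18 all combination R tumours but 1 lie below the 4 combination NR tumours, and the ranges of the groups overlap for each gene.

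Beside Ifng, the other 8 genes correlated with it from r = 0.72 (rho 0.68) for Il12b to r = 0.92 (rho 0.91) for Il12rb1, as deviations from the group mean. All 8 had a permutation p and an adjusted p of 1e-05. Without anti-PD-1 replicate 14 and combination replicate 13, r ran from 0.69 to 0.91. The same was computed for other cell lists after the data were seen. For Eomes r was 0.91 with natural killer cell markers and 0.86 with T cell markers, and for Il18 0.88 and 0.85. The same order held for Il12rb1 (0.87 and 0.84), Il12rb2 (0.86 and 0.85) and Il12b (0.82 and 0.81). For Ifng, Tbx21, Stat4 and Il18r1 r was higher with T cell markers. Over the 9 genes r ran from 0.82 to 0.91 with natural killer cell markers, from 0.73 to 0.90 with CD8 T cell markers, from 0.44 to 0.73 with CD4 T cell markers, from 0.35 to 0.66 with mature dendritic cell markers, from 0.80 to 0.92 with type 1 dendritic cell markers, and from 0.71 to 0.91 with macrophage markers. It ran from 0.12 to 0.34 with adipocyte markers, from -0.12 to 0.10 with skin markers, from -0.49 to -0.15 with CT26 carcinoma markers and from -0.29 to -0.01 with muscle markers.

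Of 12085 named genes with a mean of at least 1 CPM, those most like Ifng over the 49 tumours (Pearson r of log2 CPM, description only) included AW112010 (0.96), Il18bp (0.95), Calhm6 (0.94), Acod1 (0.94), Fgl2 (0.94), Serpina3g (0.94), Plbd1 (0.94), Rnf19b (0.93) and H2-DMa (0.93). Il18bp encodes a secreted inhibitor of IL-18. Most like Tbx21 were Clec4a1 (0.95), Ctsw, Cyfip2, Aif1 and Itgal (0.93). Most like Eomes were Ms4a4b (0.93), Gzma, Nkg7, Klrd1 and Klra3 (0.91), of which Gzma and Nkg7 encode a granule protease and a granule protein of cytotoxic cells. Il18r1 was nearest to Il2rb (0.95), Itgal, Klrk1, Gpr65 and Cd27 (0.94). Il18 was nearest to Siglec1 (0.91), a macrophage lectin, with Ms4a6c, Cyth4, Slamf9 and Cotl1 (0.90). Il12rb1 was nearest to Il18bp (0.93), Gbp8, Ly6a, AW112010 and Fgl2 (0.92). Il12rb2 was nearest to Cst7 (0.91), Rab43, Atp8b4, Mpeg1 and Ptpn1 (0.89). Il12b was nearest to Clec4a3 (0.87), Itgal, Lair1, Ptprc and Cyfip2 (0.87), and Stat4 to Fuca2 (0.88), Cyp4v3, Scly, Mpeg1 and Cst7 (0.85).

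The other genes of the pathway were positive against anti-PD-1 in most cases, and edgeR called none in any comparison. Of the interferon-gamma targets, which include antigen presentation, chemokine and checkpoint genes, 10 of 10 were positive in the combination against anti-PD-1 (median log2 fold change 0.66), and 4 of 10 had an unadjusted p under 0.05, beside 17.2% of all genes. Among them, named after the values were seen, Cxcl9, the T cell attracting chemokine, gave 0.70 (SE 0.43) and Ciita, the regulator of MHC class II, gave 1.14 (SE 0.41). Of the ligands and processing genes 8 of 11 were measured above the count filter, and 8 of 8 were positive (median 0.42). Of the receptor and signalling genes 13 of 14 were positive (median 0.24), and of the transcription factors 7 of 9 (median 0.42). The genes of other helper lineages, such as Gata3 of type 2 cells, passed the count filter in 3 of 9 cases, and 2 of 3 were positive (median 0.23). Nearest to the limit, named after the values were seen, were Il27ra, the IL-27 receptor, at 1.33 (SE 0.34, edgeR adjusted p 0.0503), Id2, a helix-loop-helix inhibitor, at 0.75 (SE 0.19, adjusted p 0.0503), Socs1, which restrains cytokine signalling, at 0.94 (SE 0.25, adjusted p 0.0595) and Cd274, which encodes PD-L1, at 1.27 (SE 0.34, adjusted p 0.0656). Against vehicle all 10 interferon-gamma targets were positive too (median 0.81), as they were for R against NR under the combination (median 1.04) and under anti-PD-1 (median 0.62). At an unadjusted edgeR p under 0.05 there were 5 of 10 against vehicle, beside 15.4% of all genes. For R against NR there were 2 of 10 under the combination, beside 9.11%, and 0 of 10 under anti-PD-1, beside 6.48%. The last comparison has 4 R tumours, and for the 9 genes it rested on single tumours. Under anti-PD-1 the R minus NR difference was 1.65 (SE 0.45, edgeR adjusted p 0.653) for Bhlhe40, a factor of cytokine-producing T cells, also named after its value was seen.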

How the data were processed

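Libraries of 49 bulk tumours were made with the QuantSeq 3′ FWD kit from 500 ng of total RNA, per the labels' protocols. The deposited table used here holds raw counts per gene. The authors' second deposited table holds log2 CPM values for 16559 genes, in which each value minus log2 of the count plus 0.5 was constant within a library (largest spread 9.99e-09), so the counts were used. Per the submitters' processing notes bcl2fastq, STAR, featureCounts and limma were used with mm10 and GRCm38. The sources used here give no versions and no strand setting. No library was a copy of another (highest r 0.996, 0 identical pairs).

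Genes were tested with edgeR 4.0.16 under R 4.3.3 (TMM, filterByExpr, robust quasi-likelihood, Benjamini-Hochberg over all genes, limit 0.05), in a fit of 4 treatments (13726 genes) and one of 6 groups (14247 genes). All 9 genes passed the filter in both. The SE was taken as the size of the log2 fold change over the square root of the test's F. The approximate 95% intervals are 1.96 SE on each side and can be narrower than the test implies. For Il18 in the combination minus vehicle the interval ran from 0.00073 to 1.20, although the unadjusted edgeR p was 0.0553. Permutation tests ran in Python 3.11.15 with scipy 1.17.1, by full enumeration if either group held under 10 tumours and by 100000 resamples if not. The scripts were tested on simulated data. Alternatives were DESeq2 1.42.0, limma-voom (limma 3.58.1), RLE scaling, no filter, the compared groups alone, marker covariates, removal of tumours with other tissue, and each tumour left out in turn. The genes, lists and limits were chosen with earlier results of these data known. The text names all 9 genes, the genes of each pathway list past the limit (none), and the 5 genes (10 for Ifng) most like each, without predicted genes or segments of antigen receptors; 1 item is not reported here. Coordinates and symbols are from GENCODE on GRCm38, and promoters from RefSeq. Il18 and Stat4 also overlap genes on the opposite strand, with 143 counts for Bco2, 0 for Tex12 and 160 for Gm3940 over the series.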

Additional observations from a re-analysis of the deposited data

Results flagged for a closer look

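Among the 36 sets of values of 1 gene in 1 group of 4 to 10 tumours that were examined, 1 held a tumour far from the rest, where chance alone gives about 1 in 20. Tbx21 in vehicle replicate 8 measured 0.43 log2 CPM, the lowest of the 9 vehicle tumours, and the next tumour measured 1.91. The gap was 0.57 of the group's range, above the critical value of 0.493 (Dixon). The same tumour was the lowest vehicle tumour for the other 8 genes, and its T cell marker mean of 1.08 log2 CPM was also the lowest among the vehicle tumours.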

How the results depend on the processing

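All 12 comparisons called 0 of the 9 genes, and 10 of them did so under each alternative run. In the combination against anti-PD-1 the count was 1 with DESeq2, with the muscle covariate and without the tumours with other tissue (Tbx21 at 1.45, 1.47 and 1.69), and 0 to 2 when single tumours were left out. It was 2 without anti-PD-1 replicate 2 or combination replicate 15 (Tbx21 and Il18r1), where 212 and 449 of all genes were called. It was 1 (Tbx21) without anti-PD-1 replicate 1 or combination replicate 3, 6 or 10, where 214, 220, 82 and 97 were called, against 69 with all tumours. In the combination against vehicle it was 1 without the tumours with other tissue (Tbx21 at 1.95). Of the 45 tests relative to T cell markers, 1 passed with Cd3e alone, and 0 to 2 without single tumours (1 without anti-PD-1 replicate 6 or 12 or combination replicate 6, and 2 without combination replicate 10). The cause of these shifts was not tested. No paired analysis was possible because replicate numbers only name tumours in the order of the labels.

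The T cell marker mean as a covariate turned negative 26 estimates that had exceeded their SE, none of them past the limit. For the combination minus vehicle these were Eomes -0.0422, Il12rb2 -0.40, Il12b -0.0683 and Il18r1 -0.10. Against anti-PD-1 they were Ifng -0.0243, Eomes -0.20, Stat4 -0.38, Il12rb1 -0.27, Il12rb2 -0.26 and Il18 -0.31. Against celecoxib they were Tbx21 -0.25, Il12rb2 -0.51, Il12b -0.27 and Il18r1 -0.30. For the celecoxib effect with minus without antibody they were Tbx21 -0.32, Il12rb2 -0.37, Il12b -0.13 and Il18r1 -0.0555. For R minus NR they were Tbx21 -0.32, Eomes -0.13 and Stat4 -0.23 under the combination, Eomes -0.15 and Il18r1 -0.0496 on average, and Tbx21 -0.18 in the difference between treatments. For the R tumours of the combination minus those of anti-PD-1 they were Eomes -0.12 and Il12rb2 -0.28. With limma-voom the averaged R minus NR estimate was -0.22 for Eomes and -0.0243 for Il18r1. Without anti-PD-1 replicate 17, Ifng was at -0.60 for R minus NR under anti-PD-1 and Eomes at -0.0263 on average. Over all tumours left out in turn these ran from -0.60 to 1.46 and from -0.0263 to 0.72. With Cd3e alone, Tbx21 relative to T cell markers was at -0.20 against anti-PD-1, and Il18r1 at 0.0048 for anti-PD-1 minus vehicle. Of all 108 differences, none of them called, 76 changed sign under at least 1 alternative, in 196 of 3600 values. Low counts (0 to 11 per gene in its lowest tumour) limit single values.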
